A study of Macaca fascicularis with 16 samples.

Results

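RNA of peripheral blood mononuclear cells was compared 1 day (4 libraries) and 30 minutes (4 libraries) after NKTT320 in 4 macaques of the species Macaca fascicularis, all of Mauritian origin. The animals were called LG04, LG11, LG12 and LG15, and by the titles each gave 1 pair of libraries. These 8 libraries were chosen by the time in their titles, out of 16 in the series. No pre-treatment library entered the comparison, and the 4 libraries of 2 hours after NKTT320 were used to estimate the spread. NKTT320 is a humanised antibody that binds and activates invariant natural killer T (iNKT) cells through their antigen receptor. Every animal received it, so both groups are treated, and time after the antibody cannot be told apart from repeated bleeding. Ribosome-depleted total RNA of unfractionated cells was sequenced, so in each result below fewer cells of a type and less RNA per cell cannot be told apart.

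iNKT cells carry a semi-invariant T-cell receptor that recognises lipids on CD1d, and they are a rare population of blood that can activate NK cells, monocytes, dendritic cells and B cells through cytokines. A cell that is stimulated through an antigen receptor, a cytokine receptor or a change in its surroundings first induces immediate-early genes, among them the AP-1 factors FOS and JUN, the NR4A orphan nuclear receptors and the feedback inhibitors of NF-kB and MAP kinases. These messengers are short-lived. Interferon-stimulated genes, cytotoxic granule genes and chaperone genes follow slower programmes of their own.

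The 1 day libraries held 1417467 to 7436071 counts and the 30 minute libraries 1960744 to 8582852 counts, and a gene with 3 counts had 0.40 to 2.12 CPM at 1 day and 0.35 to 1.53 CPM at 30 minutes. CPM are counts scaled to a total common to all libraries. Globin genes took 0.172% to 20.8% of the counts at 1 day and 0.0253% to 38.2% at 30 minutes. The defining genes of T cells (CD3E), B cells (MS4A1), NK cells (NCR1) and monocytes (CD14) had counts in all 8 libraries, and so had genes of platelets (PPBP). The library labelled LG04 at 1 day stood apart from its label. After each of the 8 libraries was thinned to 1417467 counts, it lay nearer to the 1 day library of LG15 than any other of the 28 pairs did, with a chi-square of 7.93 per gene, against 53.5 for its own pair with 30 minutes. The pairs of LG11 and LG12 had 10.7 and 11.1, and that of LG15 had 47.0. Of 156 genes that differed at least 5-fold between LG04 and LG15 at both 30 minutes and 2 hours, the 1 day library labelled LG04 lay nearer to the earlier LG04 libraries for 12. In 153 of these 156 genes LG04 was the higher of the pair. Set against LG11 and LG12 in the same way, the library labelled LG04 lay nearer to the earlier LG04 libraries for 96 of 240 and 190 of 324 genes. LG04 was the higher in 237 and 319 of these. The 1 day libraries of LG11 and LG12 lay nearer to their own animal than to LG04 for 239 of 240 and 321 of 324 such genes. That of LG15 did so for 81 of 156, and it lay nearer to the 30 minute library of LG04 (chi-square 30.4 per gene) than to its own. SLC7A4, chosen after its values were seen, was at 0 in the 1 day library labelled LG04, against 195 CPM at 30 minutes and 292 CPM at 2 hours in LG04. The cause was not tested. The pairing, the animal block, the p-values and the counts of animals below follow the labels. They assume that each library came from the animal in its title, which was not tested. Results below are given also without the library labelled LG04 at 1 day where it ended or gave a call, and the calls that held without the 1 day library of LG15 are named with the counts.

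Of 11122 genes tested, 130 passed an adjusted p of 0.05 (1.17%), 103 of them higher at 1 day (0.926%) and 27 lower (0.243%). The higher genes included GP6, GP9, SELP and ALOX12, all known from platelets, and the lower ones included the stimulation-induced genes FOS, NR4A2, TNFAIP3, RGS1 and SIK1 and the interferon-stimulated genes IFI44L, IFI44 and XAF1. The test was edgeR's quasi-likelihood F test with the animal as a block, fitted over the 12 libraries of the 3 times after NKTT320 and adjusted by Benjamini-Hochberg. The median log2 change of all genes tested was -0.02, and 47.0% of them were above 0. The higher genes had a median log2 change of 2.57, and the lower ones of -1.22. Taken animal by animal, the median change of the 103 higher genes was 2.36 in LG04, 0.90 in LG11, 0.75 in LG12 and 3.03 in LG15, and in 90 of them LG04 and LG15 had the 2 largest changes. The median change of the 27 lower genes was more even, with -1.14 in LG04, -1.21 in LG11, -1.24 in LG12 and -0.99 in LG15. At 1 day, 94 of the 103 higher genes and 27 of the 27 lower genes had the same sign in 4 of 4 animals. Over all 11122 genes tested, 847 were higher and 883 lower in 4 of 4 animals. Genes called by a paired test on these animals tend to share a sign, so this is a description of the calls. Whether the values of the 2 times overlapped is given below for single genes, as a description only. The called genes were selected on the same values, and the share without overlap over all genes tested was not counted.

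These calls depended on the libraries that set the spread. With the 8 libraries of the 2 times alone, edgeR called 0 of 10591 genes (792 at an unadjusted p under 0.05, with a smallest adjusted p of 0.18), and DESeq2 on the same 8 libraries called 248. Without the library labelled LG04 at 1 day 71 genes were called, including 47 of the 103 higher and 12 of the 27 lower genes, and all 130 kept the sign of their change. Without the 1 day library of LG15, 7 genes were called, 6 of the 130 among them. Of the genes named below ALOX12, RDH12, TUSC3, TFEC and SIK1 passed, and so did RSAD2, which is not among the 130. Without both of these libraries 22 genes were called, 9 of the 130 among them, and of the genes named as called below NR4A2, SIK1, RGS1, TNFAIP3, TFEC and CTNNA1 passed. In both fits, added after seeing the data, all 130 kept their sign, and the median of the 103 higher genes was 2.18 without the 1 day library of LG15 and 1.69 without both libraries. All of these fits reuse the remaining libraries of the first, so a kept sign was not a separate test. edgeR called 0 genes without LG04 (972 at an unadjusted p under 0.05), 0 without LG15 (913), 43 without LG11 and 210 without LG12.

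**Figure D1:**
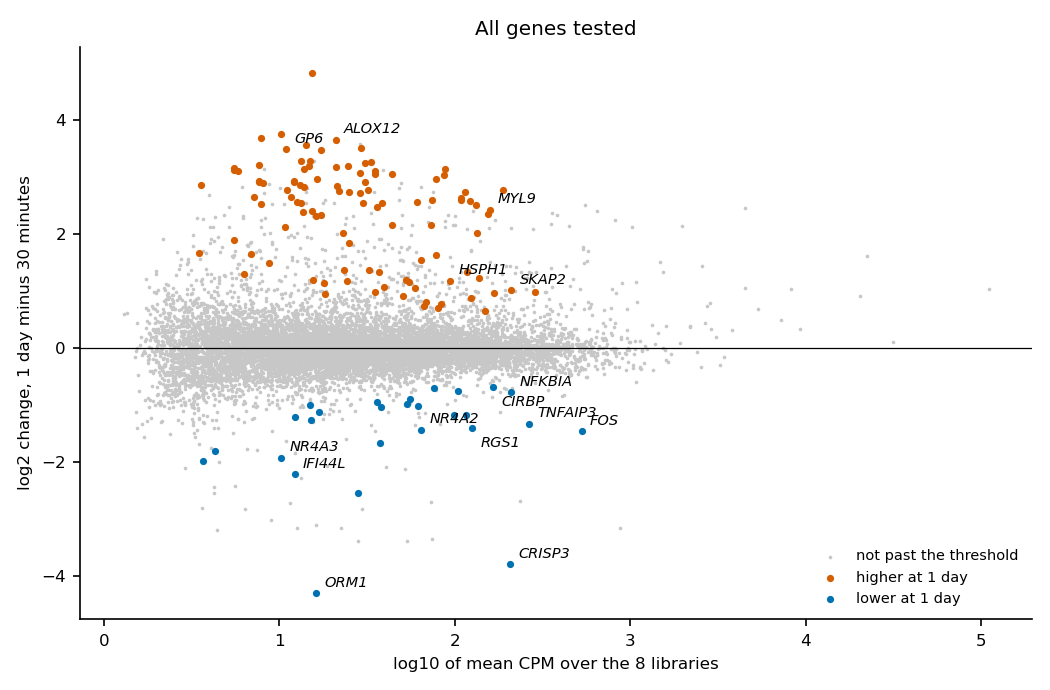
Change of every gene tested, as the log2 change of 1 day minus 30 minutes (y axis), against the log10 of its mean CPM over the 8 libraries (x axis). Orange points are the 103 genes higher at 1 day, blue points the 27 lower, and grey points the genes that did not pass the threshold; most of the orange points lie above a log2 change of 2, which holds for 70 of 103.

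Stimulation-induced genes were lower at 1 day than at 30 minutes. In 7 lists of such genes joined together (AP-1, EGR and IER, NR4A, MAP kinase phosphatases, NF-kB, cAMP-CREB targets and mRNA-decay regulators), 67 of 74 members could be tested, and 9 fell while 0 rose (8 members were above 0, 2 of them at an unadjusted p under 0.05, and 59 below 0). Over all genes tested 0.243% were called lower and 0.926% higher, which is the background for the count of each list below. At an unadjusted p under 0.05 in the main fit were 1383 of the 11122 genes tested, the background for list counts at that p. The median log2 change was -0.44, against -0.02 over all genes tested. The mean change over the 67 members, as log2(CPM + 1), was -0.51, -0.57, -0.37 and -0.49 in LG04, LG11, LG12 and LG15. The 9 genes that fell were FOS, NR4A2, NR4A3, NFKBIA, TNFAIP3, DUSP2, SIK1, PLK2 and RGS1. Without the library labelled LG04 at 1 day, 6 members were called lower, 5 of these 9 among them. Without that of LG15 SIK1 alone was called, and without both NR4A2, SIK1, RGS1 and TNFAIP3 were called. With the 8 libraries alone edgeR called 0 lower (24 at an unadjusted p under 0.05) and DESeq2 called 10. Below, the 4 values of a gene are CPM in the order LG04, LG11, LG12 and LG15, and ± after a log2 change is its standard error.

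The NR4A receptors are orphan nuclear receptors that antigen-receptor signalling induces within minutes, and NR4A2 and NR4A3 both fell. NR4A2 had 36.0, 33.1, 37.5 and 29.1 CPM at 1 day, against 57.9, 116, 126 and 78.0 CPM at 30 minutes. The 4 values at 1 day lay close together and below every value at 30 minutes, while the values at 30 minutes were spread, with LG11 and LG12 the highest. The log2 change was -1.44 ± 0.18 (adjusted p = 0.016), and it was -1.61 (adjusted p = 0.019) without the library labelled LG04 at 1 day. NR4A3 had 3.79, 5.60, 1.12 and 5.36 CPM at 1 day, against 9.59, 19.3, 19.6 and 16.5 CPM at 30 minutes. Its value in LG12 at 1 day was under 3 counts. Here too the groups did not overlap, and the log2 change was -1.93 ± 0.36 (adjusted p = 0.041). Without the library labelled LG04 at 1 day it was -1.93, with an adjusted p of 0.079. NR4A1 did not pass, with a log2 change of -0.67 ± 0.24 (adjusted p = 0.26). It was lower at 1 day in 3 of 4 animals, LG12 being the exception.

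In order of time, the mean over the 4 animals was 94.7, 81.6 and 33.9 CPM for NR4A2 at 30 minutes, 2 hours and 1 day. That of NR4A3 was 16.3, 11.5 and 3.97 CPM. Both genes thus had their lowest mean at 1 day, with the 2 hour mean between the others. LG04 departed from this order, with more at 2 hours than at 30 minutes for NR4A2 (66.8 against 57.9 CPM) and NR4A3 (13.4 against 9.59 CPM).

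FOS, a subunit of the AP-1 transcription factor, had 182, 564, 226 and 215 CPM at 1 day, against 698, 970.1, 485 and 879 CPM at 30 minutes. It was lower at 1 day in 4 of 4 animals, but LG11 at 1 day stayed above LG12 at 30 minutes, so the groups overlapped. FOS fell by a log2 change of -1.47 ± 0.22 (adjusted p = 0.022), which just missed the threshold without the library labelled LG04 at 1 day (-1.37, adjusted p = 0.0521). Of the 11 AP-1 factors tested, FOS alone passed the test, while 10 were below 0 and the median was -0.50. JUN, the partner of FOS, averaged 48.2 ± 16.3 CPM at 1 day and 116 ± 21.6 CPM at 30 minutes (SD, n = 4 each). Its groups did not overlap, but its log2 change of -1.34 ± 0.33 did not pass (adjusted p = 0.090). FOSB had a log2 change of -1.15 ± 0.27 (adjusted p = 0.078) and JUND one of -0.73 ± 0.25 (adjusted p = 0.23). Of 8 EGR and IER genes, 0 passed edgeR's test (1 at an unadjusted p under 0.05, IER5). IER5 had a log2 change of -0.72 ± 0.22 without overlap (adjusted p = 0.18), and EGR1 one of -0.69 ± 0.31 (adjusted p = 0.40).

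Of 15 cAMP-CREB targets 5 fell, against 0.243% of all genes tested, and 14 were below 0, with a median of -0.84. They share NR4A2 and NR4A3 with the NR4A list, and the other genes that fell were SIK1, PLK2 and RGS1. SIK1, a kinase that restrains CREB coactivators, had 58.1, 79.8, 62.7 and 81.1 CPM at 1 day, against 179, 209, 119 and 139 CPM at 30 minutes. Every animal was lower at 1 day and the groups did not overlap, with a log2 change of -1.18 ± 0.15 (adjusted p = 0.016). RGS1, which shortens signalling of G-protein-coupled receptors such as chemokine receptors, had 63.1, 59.9, 62.7 and 72.7 CPM at 1 day, against 109, 198, 294 and 144 CPM at 30 minutes. The 1 day values were close together, LG12 at 30 minutes was the highest, and the groups did not overlap (log2 change -1.41 ± 0.25, adjusted p = 0.031). PLK2, a stress-induced kinase, had 15.8, 12.8, 17.4 and 15.3 CPM at 1 day, against 29.8, 25.1, 125 and 55.6 CPM at 30 minutes. LG12 had the highest value at 30 minutes and LG11 the smallest difference, and the log2 change was -1.67 ± 0.29 (adjusted p = 0.033). These 3 genes also passed without the library labelled LG04 at 1 day, with adjusted p of 0.036 for SIK1, 0.040 for RGS1 and 0.043 for PLK2.

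**Figure D2:**
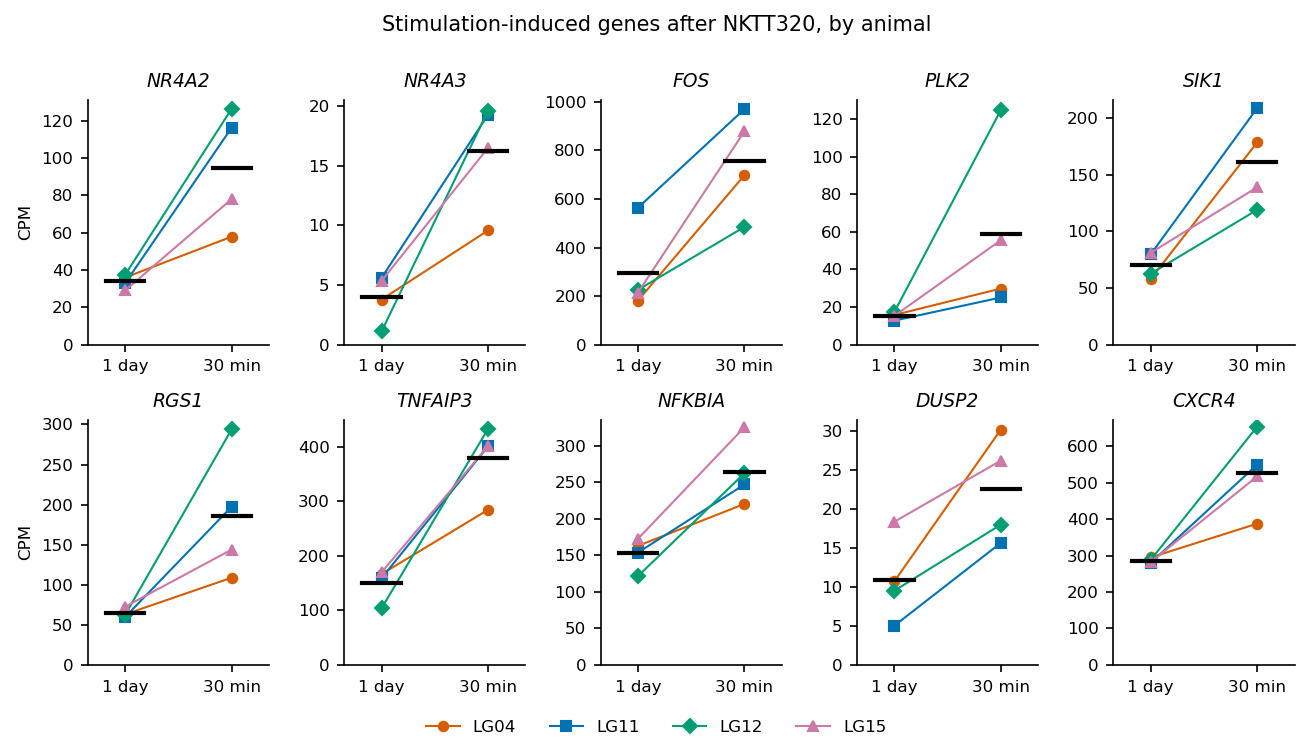
CPM (y axis, from 0) of 10 stimulation-induced genes at 1 day (left) and 30 minutes (right), with 1 line per animal and a black bar at the mean of the 4 animals. All 4 lines run lower at 1 day in each of the 10 panels; CXCR4 did not pass the test (adjusted p = 0.060).

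Of 17 NF-kB subunits and feedback genes tested, 16 were below 0, with a median of -0.38, and the feedback inhibitors TNFAIP3 and NFKBIA fell. TNFAIP3, which encodes the ubiquitin-editing protein A20, had 167, 159, 104 and 169.9 CPM at 1 day, against 285, 401, 433 and 402 CPM at 30 minutes. The groups did not overlap and the log2 change was -1.33 ± 0.21 (adjusted p = 0.023), with -1.46 (adjusted p = 0.036) without the library labelled LG04 at 1 day. NFKBIA, which encodes the inhibitor that holds NF-kB in the cytoplasm, had 163, 154, 122 and 173 CPM at 1 day, against 220.3, 247, 262 and 325 CPM at 30 minutes. It fell in 4 of 4 animals without overlap, by a log2 change of -0.78 ± 0.16 that lay at the threshold (adjusted p = 0.0499) and missed it without the library labelled LG04 at 1 day (adjusted p = 0.079). The NF-kB subunit REL had a log2 change of -0.44 ± 0.13 (adjusted p = 0.16) and NFKB1, named after its values were seen, one of -0.16 ± 0.15 (adjusted p = 0.77).

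Among 8 dual-specificity MAP kinase phosphatases, which switch off ERK, JNK and p38 kinases, DUSP2 fell. It had 10.7, 5.03, 9.52 and 18.4 CPM at 1 day, against 30.2, 15.7, 18 and 26.2 CPM at 30 minutes. The value of LG15 at 1 day lay above those of LG11 and LG12 at 30 minutes, so the groups overlapped, and the log2 change was -1.12 ± 0.22 (adjusted p = 0.0466, and 0.12 without the library labelled LG04 at 1 day). DUSP1 had a log2 change of -1.11 ± 0.23 and did not pass (adjusted p = 0.060). The median of the list was -0.47. Of 10 mRNA-decay regulators, which shorten the life of messengers, 0 passed edgeR's test (6 at an unadjusted p under 0.05) and 8 were below 0. TOB1 and BTG2 had log2 changes of -0.83 ± 0.21 (adjusted p = 0.096) and -0.46 ± 0.12 (adjusted p = 0.11), both without overlap.

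CXCR4 and most of the T-cell activation and checkpoint receptors tested were below 0 without passing the test. CXCR4, the receptor for CXCL12 that keeps leukocytes in the bone marrow and tissues, had 295, 280.0, 288 and 282 CPM at 1 day, against 388, 549.6, 654 and 517 CPM at 30 minutes. The 4 libraries at 1 day lay close together and below every library at 30 minutes, where LG12 was the highest. Its log2 change was -0.85 ± 0.18 (adjusted p = 0.060). Of 14 T-cell activation and checkpoint receptors, 12 were below 0 and 0 passed edgeR's test (5 at an unadjusted p under 0.05), with a median of -0.43. The costimulatory receptor CD28 had a log2 change of -0.77 ± 0.22 (adjusted p = 0.15) without overlap, and -1.03 (adjusted p = 0.042) without the library labelled LG04 at 1 day. CD69, an early activation antigen that retains lymphocytes in tissue, had 158, 75.4, 64.4 and 150.03 CPM at 1 day, against 118, 237, 268 and 225 CPM at 30 minutes. It was lower at 1 day in LG11, LG12 and LG15 and higher in LG04, with a log2 change of -0.87 ± 0.42 (adjusted p = 0.46). Without the 1 day libraries labelled LG04 and LG15, CD28 and CD69 passed the test, with log2 changes of -1.20 and -1.95 (adjusted p = 0.0459 each). MYC, a growth regulator, had a log2 change of 0.14 ± 0.26 (adjusted p = 0.93).

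Some other genes fell outside those lists, named after their values were seen. CSRNP1, a nuclear protein induced by AXIN1, had 49.2, 57.9, 60.5 and 68.1 CPM at 1 day, against 136, 126, 101 and 189 CPM at 30 minutes. The groups were apart, with a log2 change of -1.18 ± 0.19 (adjusted p = 0.025, and 0.060 without the library labelled LG04 at 1 day). IRS2, an adaptor of the insulin and interleukin-4 receptors, had 33.5, 35.7, 31.4 and 41.0 CPM at 1 day, against 82.6, 63.9, 85.9 and 51.7 CPM at 30 minutes. Its groups did not overlap either, and its adjusted p of 0.0499 was at the threshold and was 0.12 without the library labelled LG04 at 1 day. ADNP2, a homeobox protein, had 56.2, 60.4, 62.2 and 51.3 CPM at 1 day, against 88.4, 101, 96.2 and 89.9 CPM at 30 minutes. It had one of the smallest spreads among the genes that fell, with a log2 change of -0.71 ± 0.11 (adjusted p = 0.023). CDK5R1, the activator of the kinase CDK5, had a log2 change of -1.27 ± 0.23 (adjusted p = 0.034), C1orf74 one of -1.99 ± 0.39 (adjusted p = 0.0466) and RHBDL3, a rhomboid-like protein, one of -1.81 ± 0.34 (adjusted p = 0.038). CDK5R1, C1orf74 and RHBDL3 had no overlap between the times, and they did not pass without the library labelled LG04 at 1 day (adjusted p = 0.067, 0.079 and 0.079). C1orf74 had 1.26, 1.72, 1.12 and 1.15 CPM at 1 day, against 3.07, 6.22, 3.27 and 10.6 CPM at 30 minutes. Its 1 day values in LG04, LG12 and LG15 were at or under 3 counts. RHBDL3 had 1.89, 0.686, 3.92 and 1.53 CPM at 1 day, which are few counts per library.

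Interferon-stimulated genes were mostly lower at 1 day, and more so in LG04 and LG11 than in LG12 and LG15. Of 31 type I interferon-stimulated genes tested (32 in the list), 29 were below 0 and 3 fell, IFI44L, IFI44 and XAF1, with a median log2 change of -0.47 against -0.02 over all genes. Genes called lower were 0.243% of all genes tested. The mean change per animal was -0.91, -0.91, -0.20 and -0.24 in LG04, LG11, LG12 and LG15. The summed CPM of the 32 genes was 1198, 1713, 1088 and 1253 at 1 day, against 1787, 2672, 1139.6 and 1433 at 30 minutes. It was lower at 1 day in 4 of 4 animals, with the widest gaps in LG04 and LG11.

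IFI44L, an interferon-induced antiviral gene, had 1.89, 13.5, 2.24 and 0.383 CPM at 1 day, against 13.6, 51.9, 7.77 and 5.42 CPM at 30 minutes. It was lower at 1 day in every animal, LG11 was the highest at both times, and the groups overlapped. The 1 day values of IFI44L in LG04, LG12 and LG15 were near or under the floor of 3 counts. The log2 change was -2.21 ± 0.35 (adjusted p = 0.023) and -2.0 (adjusted p = 0.0494) without the library labelled LG04 at 1 day. Its neighbour IFI44 had 5.05, 14.4, 6.16 and 3.06 CPM at 1 day, against 11.2, 34.8, 17.2 and 5.80 CPM at 30 minutes. The order of the animals was similar, and the log2 change was -1.22 ± 0.22 (adjusted p = 0.037). XAF1, a pro-apoptotic interferon target, had 5.68, 20.8, 5.60 and 7.65 CPM at 1 day, against 14.3, 39.9, 9.0 and 16.1 CPM at 30 minutes, with a log2 change of -1.0 ± 0.18 (adjusted p = 0.037). IFI44 and XAF1 did not pass without the library labelled LG04 at 1 day (adjusted p = 0.087 and 0.079), and IFI44L did not pass without the 1 day library of LG15 (adjusted p = 0.098). Without the 1 day library of LG15, RSAD2 alone of the list was called lower.

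IRF9, the DNA-binding subunit of the complex that switches on these genes, fell too; it was named after its values were seen. It had 23.4, 29.7, 18.5 and 26.4 CPM at 1 day, against 53.5, 62.0, 30.7 and 59.1 CPM at 30 minutes. The groups did not overlap, and the log2 change was -1.04 ± 0.14 (adjusted p = 0.016, and 0.036 without the library labelled LG04 at 1 day). STAT2 had a log2 change of -0.38 ± 0.11 (adjusted p = 0.17), MX1 one of -0.96 ± 0.23 (adjusted p = 0.087) and IFI6 one of -1.60 ± 0.39 (adjusted p = 0.090). In LG12 the values of MX1 and IFI6 barely differed between the times. ISG15 did not pass the filter on low counts. Of 15 interferon-gamma response genes, 0 passed edgeR's test (8 at an unadjusted p under 0.05) and the median was -0.32. IRF1, a factor that both interferon types induce, had a log2 change of -0.29 ± 0.13 (adjusted p = 0.38). The chemokine CXCL10 had one of -0.30 ± 0.30 (adjusted p = 0.90).

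**Figure D3:**
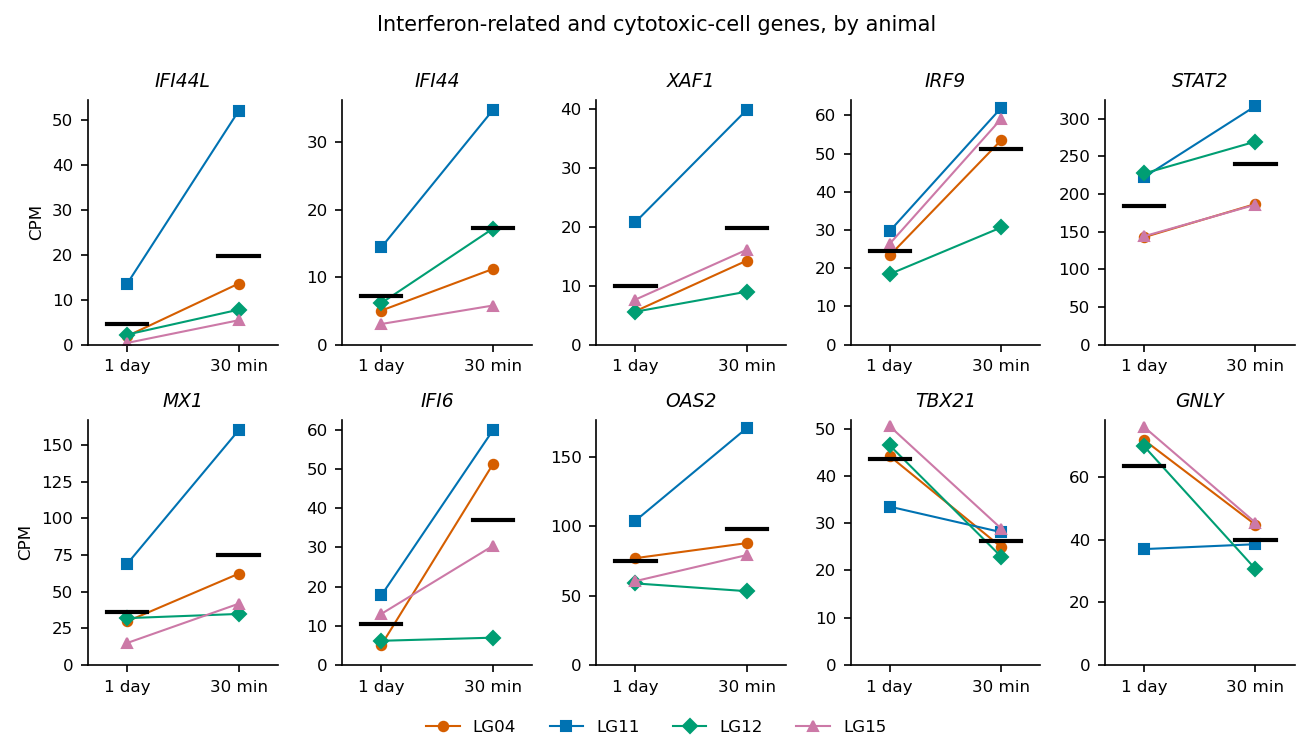
CPM (y axis, from 0) of 8 interferon-related genes and of TBX21 and GNLY at 1 day (left) and 30 minutes (right), with 1 line per animal and a black bar at the mean of the 4 animals. IRF9 and TBX21 are the panels in which the 2 times do not overlap, IRF9 with lower and TBX21 with higher values at 1 day; IFI44L, IFI44, XAF1 and IRF9 passed the test.

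Platelet genes were among those that rose most, and their levels were highest in a pair of libraries. Platelets carry messengers inherited from megakaryocytes, and they can remain among mononuclear cells after a density gradient. Of 13 platelet markers 11 were tested, 11 were above 0, and GP6, GP9 and SELP passed the test. Over all genes tested 0.926% were called higher. A marker can pass the filter on low counts through its higher libraries alone. With the libraries of the 2 times alone, 8 markers passed it, GP6 and GP9 not among them, and edgeR called 0 (8 at an unadjusted p under 0.05). In the main fit the median log2 change of the 11 markers was 2.46. Without the 1 day library of LG15 edgeR called 0 of them (11 at an unadjusted p under 0.05, median 2.23), and without both that and the library labelled LG04 it called 0 (9 at an unadjusted p under 0.05, median 1.77). The summed CPM of the 13 markers was 31674, 792, 993 and 26207 at 1 day, against 2927, 225, 674 and 1776 at 30 minutes. The library labelled LG04 and the LG15 library at 1 day thus lay far above the 6 others. The mean change of the 11 markers was 2.97, 1.27, 0.48 and 3.97 in LG04, LG11, LG12 and LG15.

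GP6, the collagen receptor of platelets, had 32.8, 1.60, 1.12 and 44.0 CPM at 1 day, against 3.26, 0.429, 0.409 and 2.14 CPM at 30 minutes. Each animal was higher at 1 day, but LG11 and LG12 at 1 day lay below LG04 and LG15 at 30 minutes, so the groups overlapped. The values of GP6 in LG12 at both times and in LG11 at 30 minutes were under 3 counts. The log2 change was 3.50 ± 0.45 (adjusted p = 0.016), and 3.67 (adjusted p = 0.036) without the library labelled LG04 at 1 day. GP9, a subunit of the receptor for von Willebrand factor, had 22.1, 0.229, 0.560 and 33.3 CPM at 1 day, against 4.70, 0, 0 and 0.756 CPM at 30 minutes. Its values in LG11 and LG12 were under 3 counts at both times, so its log2 change of 3.68 ± 0.62 (adjusted p = 0.027) came from LG04 and LG15. SELP, the adhesion molecule P-selectin, had 424, 27.3, 12.3 and 354 CPM at 1 day, against 58.6, 5.36, 7.77 and 21.4 CPM at 30 minutes. It showed the same order, with a log2 change of 2.74 ± 0.49 (adjusted p = 0.033) and an adjusted p of 0.0535 without the library labelled LG04 at 1 day. The platelet chemokines PPBP and PF4, the most abundant of the markers named here, did not pass. PPBP had 17990, 397, 622 and 14266 CPM at 1 day, against 1121, 115, 389 and 1065 CPM at 30 minutes, and a log2 change of 2.46 ± 0.61 (adjusted p = 0.091). PF4 had 2068, 25.3, 49.8 and 1929.8 CPM at 1 day, against 209, 7.29, 24.6 and 119 CPM at 30 minutes, and a log2 change of 2.5 ± 0.57 (adjusted p = 0.069).

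The 15 genes with the largest rise among those higher in 4 of 4 animals shared this order of the libraries, RNU11 excepted. ALOX12, the platelet 12-lipoxygenase, had 83.3, 0.572, 2.80 and 67.0 CPM at 1 day, against 8.14, 0.215, 0 and 4.03 CPM at 30 minutes. Its values in LG11 and LG12 were at or near the floor of 3 counts, and the log2 change was 3.66 ± 0.35 (adjusted p = 0.0076). GJA1, the gap-junction protein connexin 43, had 39.8, 2.63, 2.80 and 31.0 CPM at 1 day, against 1.45, 0.429, 1.23 and 1.76 CPM at 30 minutes, and alone among these 15 its groups did not overlap (log2 change 3.76 ± 0.52, adjusted p = 0.018). The others were GP9, GP6, DAB1, PRTFDC1, RDH12, CMTM5, TUSC3, PRKG1, RNU11, PLXNB3, MRVI1, DENND2C and TMEM40, with log2 changes between 3.13 and 3.68. Of the 15, DAB1, PRTFDC1, PRKG1, DENND2C and TMEM40 did not pass without the library labelled LG04 at 1 day, with adjusted p between 0.0530 and 0.11. ALOX12, RDH12 and TUSC3 alone among the 15 passed without the 1 day library of LG15, and none of the 15 passed edgeR's test without both libraries, with adjusted p of at least 0.074. PRKG1 and MRVI1 encode the cyclic GMP-dependent kinase that inhibits platelets and its partner protein. RNU11, a small nuclear RNA of the minor spliceosome, had 32.8, 2.06, 10.6 and 9.19 CPM at 1 day, against 1.99, 0.215, 2.86 and 0.882 CPM at 30 minutes, with LG12 higher than LG15 at 1 day.

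Other genes of platelet function among the 103 were named after their values were seen. P2RY12, the ADP receptor that antiplatelet drugs block, had 82.7, 4.92, 3.36 and 62.0 CPM at 1 day, against 5.79, 2.15, 2.05 and 5.42 CPM at 30 minutes. The log2 change was 2.85 ± 0.47 (adjusted p = 0.027, and 0.067 without the library labelled LG04 at 1 day). MYL9, a myosin light chain, had 576, 9.38, 12.9 and 509.8 CPM at 1 day, against 91.5, 3.0, 5.32 and 53.1 CPM at 30 minutes. It had a log2 change of 2.43 ± 0.32 (adjusted p = 0.016) and again split LG04 and LG15 from LG11 and LG12. GP5 had a log2 change of 2.91 ± 0.50, the serotonin transporter SLC6A4 one of 3.05 ± 0.45, the chaperone clusterin (CLU) one of 2.17 ± 0.34 and the thromboxane synthase TBXAS1 one of 1.37 ± 0.26. GP5 and TBXAS1 did not pass without the library labelled LG04 at 1 day (adjusted p = 0.074 and 0.075). A further fit took the mean level of the tested platelet markers as a covariate. This removes their own change by construction, so their median of -0.09 there is not a result. The covariate was itself higher at 1 day in every animal, and highest in the 1 day libraries of LG04 (9.10) and LG15 (9.01), so it overlaps with time. In that fit edgeR called 0 genes in all (691 at an unadjusted p under 0.05). The median of the 67 stimulation-induced genes was -0.36 in that fit, and that of the type I interferon-stimulated genes -0.66.

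**Figure D4:**
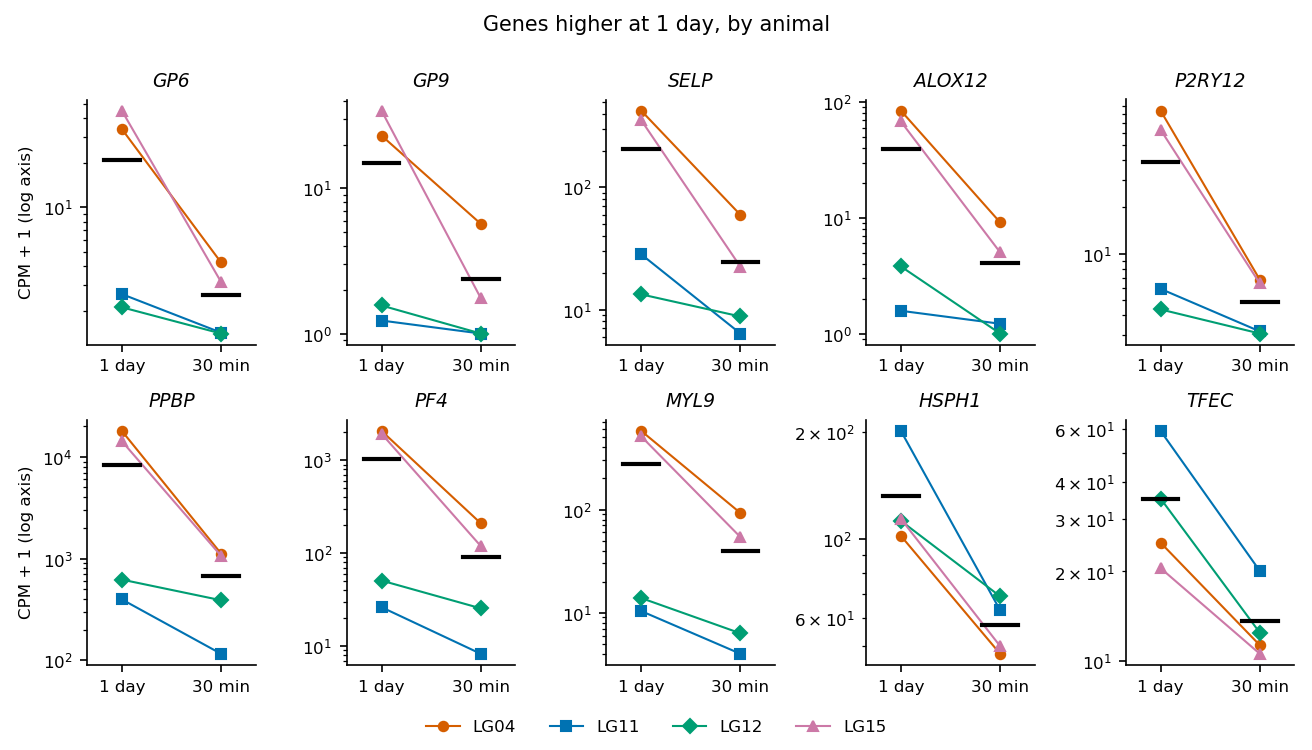
CPM + 1 on a log axis (y axis) of 10 genes at 1 day (left) and 30 minutes (right), with 1 line per animal and a black bar at the mean of the 4 animals. In the first 8 panels, all platelet genes, LG04 and LG15 at 1 day lie far above the other libraries, while HSPH1 and TFEC are higher at 1 day in all 4 animals without overlap; PPBP and PF4 did not pass the test.

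A chaperone gene rose in all 4 animals. HSPH1, the HSP110 chaperone that acts as an exchange factor for HSP70, had 101, 200.5, 111 and 113 CPM at 1 day, against 46.5, 62.0, 67.9 and 48.9 CPM at 30 minutes. Every library at 1 day lay above every library at 30 minutes, LG11 highest, with a log2 change of 1.18 ± 0.18 (adjusted p = 0.022) and 1.25 (adjusted p = 0.036) without the library labelled LG04 at 1 day. The changes in LG04, LG11, LG12 and LG15 were 1.10, 1.68, 0.71 and 1.19 in log2(CPM + 1). Of 19 heat-shock and chaperone genes tested, 15 were above 0, HSPH1 alone passed, and the median was 0.27. STIP1, which links HSP70 to HSP90, had 76.4, 94.1, 70.6 and 66.2 CPM at 1 day, against 39.1, 36.3, 44.2 and 53.2 CPM at 30 minutes. Its groups did not overlap, and its log2 change of 0.83 ± 0.18 did not pass (adjusted p = 0.062). The HSP90 cochaperones FKBP4 and AHSA1 had log2 changes of 0.84 ± 0.20 (adjusted p = 0.076) and 0.86 ± 0.21 (adjusted p = 0.087). HSP90AA1, named after its values were seen, had a log2 change of 0.56 ± 0.14 (adjusted p = 0.097).

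The cold-inducible RNA-binding protein CIRBP moved the other way; it and RBM3 were named after their values were seen. CIRBP had 115, 111, 148 and 137 CPM at 1 day, against 202, 189.9, 198 and 224 CPM at 30 minutes. The values did not overlap, with a log2 change of -0.68 ± 0.13 (adjusted p = 0.037, and 0.079 without the library labelled LG04 at 1 day). RBM3, of the same family, had 126, 211, 139 and 109 CPM at 1 day, against 221, 249, 217 and 242 CPM at 30 minutes, with a log2 change of -0.70 ± 0.16 that did not pass (adjusted p = 0.075).

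Outside the chaperones, and named after their values were seen, TFEC and CTNNA1 rose in each animal. TFEC, a transcription factor of the MITF family found in myeloid cells, had 24.0, 58.3, 34.2 and 19.5 CPM at 1 day, against 10.3, 19.1, 11.5 and 9.58 CPM at 30 minutes. The groups were apart by a narrow margin between LG15 at 1 day and LG11 at 30 minutes, with a log2 change of 1.38 ± 0.20 (adjusted p = 0.019). CTNNA1, the adhesion protein alpha-catenin, had 86.5, 86.5, 28.6 and 95.3 CPM at 1 day, against 50.6, 37.3, 10.6 and 39.0 CPM at 30 minutes. LG12 was the lowest at both times, and the log2 change was 1.16 ± 0.16 (adjusted p = 0.016). Both genes passed without the library labelled LG04 at 1 day (adjusted p = 0.036 and 0.019). TEC, a kinase of haematopoietic cells, had a log2 change of 1.20 ± 0.22 (adjusted p = 0.037), and SKAP2, an adaptor of integrin signalling, one of 1.01 ± 0.16 (adjusted p = 0.023). LG04 and LG15 had the 2 largest changes of both TEC and SKAP2, and TEC did not pass without the library labelled LG04 at 1 day (adjusted p = 0.087).

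Neutrophil genes gave the largest falls, and their levels were highest in the 30 minute libraries of LG04 and LG15. Neutrophils are granulocytes that mostly settle below the mononuclear cells in a density gradient. Of 16 neutrophil markers tested (18 in the list, 1 at 0 throughout), 14 were below 0 and ORM1 passed the test. Over all genes tested 0.243% were called lower. The median log2 change of the 16 neutrophil markers was -2.41. This median was -1.69 without the library labelled LG04 at 1 day, -1.86 without the 1 day library of LG15, -1.15 without both and -1.26 without the animal LG04. The summed CPM of the 18 markers was 299.9, 416, 169 and 328 at 1 day, against 7867, 570.5, 122 and 2870.2 at 30 minutes. LG12 was the exception, with more at 1 day. ORM1, an acute-phase glycoprotein, had 1.89, 1.14, 0 and 0.765 CPM at 1 day, against 76.3, 5.15, 1.64 and 41.6 CPM at 30 minutes. Its log2 change was -4.30 ± 0.79 (adjusted p = 0.037). CRISP3, a protein of specific granules, had 28.4, 24.7, 5.04 and 22.2 CPM at 1 day, against 958, 81.5, 24.1 and 506 CPM at 30 minutes, with a log2 change of -3.80 ± 0.74 (adjusted p = 0.045). BPI, a bactericidal granule protein, had 10.1, 2.97, 0 and 13.0 CPM at 1 day, against 136, 8.37, 0.409 and 51.9 CPM at 30 minutes, with a log2 change of -2.54 ± 0.46 (adjusted p = 0.035). BPI in LG12 was under 3 counts at both times. ORM1 at 1 day was at or under 3 counts in LG04, LG12 and LG15. The values of all 3 genes at 30 minutes were highest in LG04, then in LG15, and far lower in LG11 and LG12. None of the 3 passed without the library labelled LG04 at 1 day, where ORM1, CRISP3 and BPI each had an adjusted p of 0.12.

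Genes of cytotoxic cells leaned higher without passing. Of 13 cytotoxic granule genes, 11 were above 0 and 0 passed edgeR's test (6 at an unadjusted p under 0.05), with a median of 0.55 and per-animal means of 0.72, -0.14, 0.69 and 0.38 in LG04, LG11, LG12 and LG15. The granule protein granulysin (GNLY) had 72, 37.1, 70.0 and 76.2 CPM at 1 day, against 44.9, 38.6, 30.7 and 45.5 CPM at 30 minutes. LG11 differed little and the other 3 animals were higher at 1 day, with a log2 change of 0.65 ± 0.22 (adjusted p = 0.25). The pore-forming perforin (PRF1) had a log2 change of 0.65 ± 0.23 (adjusted p = 0.26) and the protease granzyme B (GZMB) one of 0.54 ± 0.22 (adjusted p = 0.33). Reads of GZMB and its near-identical relative GZMH may have been split between them, and GZMH had a log2 change of 0.65 ± 0.24 (adjusted p = 0.28). Of 14 NK-cell markers, 13 were above 0 and 0 passed edgeR's test (4 at an unadjusted p under 0.05), with a median of 0.46. TBX21, which encodes the transcription factor T-bet of type 1 and cytotoxic lymphocytes, had 44.2, 33.5, 46.5 and 50.5 CPM at 1 day, against 25.0, 28.1, 22.9 and 28.9 CPM at 30 minutes. It was higher at 1 day in 4 of 4 animals without overlap and missed the threshold, with a log2 change of 0.72 ± 0.16 (adjusted p = 0.068). Its relative EOMES had a log2 change of 0.62 ± 0.19 (adjusted p = 0.17). The cytokine gene IFNG had 1.89, 3.77, 3.92 and 3.06 CPM at 1 day, against 1.99, 3.43, 0.409 and 2.77 CPM at 30 minutes, a few counts per library, with a log2 change of 0.43 ± 0.46 (adjusted p = 0.82).

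The genes associated with iNKT cells did not move in one direction. Of 17 tested, 10 were above 0 and 0 passed edgeR's test (4 at an unadjusted p under 0.05), with a median of 0.02. ZBTB16, which encodes the iNKT master factor PLZF, had 15.2, 1.94, 5.04 and 17.2 CPM at 1 day, against 13.6, 13.1, 2.46 and 11.2 CPM at 30 minutes. LG11 was lower at 1 day and the other 3 animals were slightly higher, with a log2 change of -0.31 ± 0.50 (adjusted p = 0.91). Other blood cells express most genes of this list, and TBX21 is also in the NK-cell list.

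Small nucleolar RNA genes leaned higher and ribosomal protein genes lower. snoRNAs guide the modification of ribosomal RNA and are released from introns. Of 392 snoRNA and scaRNA genes in the table, 64 passed the filter on low counts, which a gene can do through the higher time alone. Of these 64, 60 were above 0, with a median of 0.93. edgeR called 0 of them (34 at an unadjusted p under 0.05). The summed CPM of all 392 was 4849.6, 3020.4, 8662 and 6342 at 1 day, against 3557, 2294, 5646 and 2933 at 30 minutes. Every animal was higher at 1 day, LG15 by the widest ratio. SNORA68 had a log2 change of 1.73 ± 0.36 (adjusted p = 0.058) and SNORA61 one of 1.53 ± 0.32 (adjusted p = 0.058). With the platelet level as a covariate, which overlaps with time, the median of the 64 was 0.18. Of 80 ribosomal protein genes tested, 77 were below 0, with a median of -0.30 and 0 called by edgeR (14 at an unadjusted p under 0.05). Their per-animal means were -0.37, -0.03, -0.09 and -0.65 in LG04, LG11, LG12 and LG15, so that LG11 hardly differed. With the platelet level as a covariate, which overlaps with time, their median was 0.03.

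The other blood cell types showed no common direction in the 4 animals. Monocyte markers changed by -1.61, 0.63, 2.52 and -1.14 on average in LG04, LG11, LG12 and LG15, and their summed CPM was 1390.3, 8905, 1675 and 1476 at 1 day, against 5756, 4941, 232 and 3330.0 at 30 minutes. LG11 and LG12 thus had more at 1 day and LG04 and LG15 less, and 0 of 18 markers passed edgeR's test (1 at an unadjusted p under 0.05). CD14, the lipopolysaccharide coreceptor of monocytes, had a log2 change of 1.01 ± 0.66 (adjusted p = 0.63). Of 14 B-cell markers 13 were below 0 and 0 passed edgeR's test (1 at an unadjusted p under 0.05), with per-animal means of -1.06, -0.33, 0.46 and -0.49. The B-cell antigen MS4A1 had a log2 change of -0.46 ± 0.25 (adjusted p = 0.52). Of 20 T-cell markers 13 were below 0 and 0 passed edgeR's test. At an unadjusted p under 0.05 were 3 of the 20, against 1383 of the 11122 genes tested. The T-cell receptor subunit CD3E had a log2 change of -0.10 ± 0.21 (adjusted p = 0.94). Red-cell markers changed by -2.61, -1.22, 1.26 and 2.80, with a different sign in LG04 and LG11 than in LG12 and LG15. The part of these shifts in the other results was not tested. The glucocorticoid-induced genes FKBP5 and TSC22D3 had log2 changes of -0.29 ± 0.34 (adjusted p = 0.85) and -0.20 ± 0.25 (adjusted p = 0.86).

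**Figure D5:**
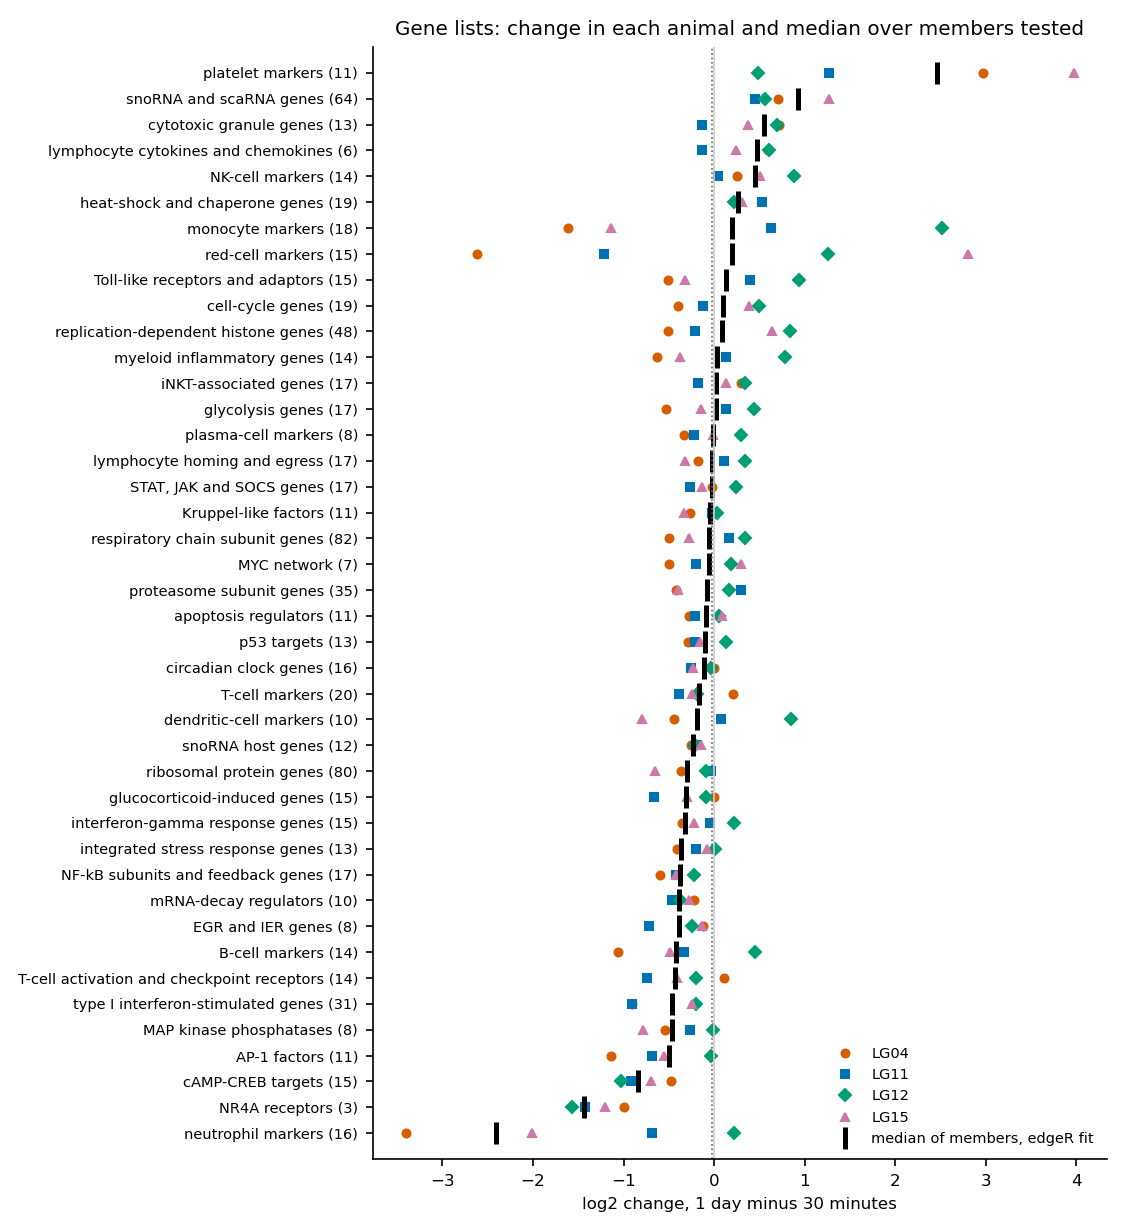
Change of 42 gene lists (rows, with the number of members tested) in log2, 1 day minus 30 minutes (x axis). Coloured points are the mean of log2(CPM + 1) over members in each animal, black bars the median of the members in the edgeR fit, and the dotted line the median of all genes tested (-0.02); platelet markers lie farthest right and neutrophil markers farthest left, while the monocyte and red-cell points of the 4 animals lie on both sides of 0.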

How the data were processed

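Counts of the deposited tables per animal and time are whole numbers per gene that the authors did not normalize. Per the submitters' processing notes, the human builds GRCh37 and hg19 were used, with STAR, HTSeq, edgeR, DESeq, Trimmomatic and FastQC among the tools; strand setting, versions and annotation: not given in the sources used here. Macaque reads were thus counted on human gene models: genes that differ between the species can be undercounted, near-identical copies and genes on opposite strands are uncertain, and 7 genes of the major histocompatibility region that were looked up were at 0 throughout. The 24369 entries of a table were summed to 23602 symbols (766 had several entries, 659 of these without a count).

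Samples were grouped by title and paired by animal. Counts were scaled by TMM, filtered with filterByExpr and fitted in edgeR 4.0.16 (R 4.3.3) as animal plus time over 12 libraries, with 6 residual degrees of freedom; the coefficient was 1 day minus 30 minutes. Per-animal changes are of log2(CPM + 1). CPM are on TMM-scaled library sizes. A floor is 3 counts and covers counting error only. The deviations of same-animal libraries correlated by 0.31 (LG04), 0.65 (LG11), 0.51 (LG12) and 0.14 (LG15); that of LG15 at 1 day with LG04 at 30 minutes was 0.55. Each animal gave 1 library per time, so the residual spread mixes that between draws of blood with that between animals in their change. A p-value does not cover a shift shared by all libraries of 1 time. The script was tested on simulated data. Alternatives were DESeq2 1.42.0, other scaling and filters, left-out libraries (those with the 1 day library of LG15 chosen after seeing the data) and animals, and a platelet covariate. Members and gene lists were chosen with earlier results of these data known. Genes named were the 15 largest changes in each direction with 1 sign in 4 animals, up to 4 members of smallest p in each list, and a set panel, of which 1 gene is not reported here; exceptions are stated. The deposited FPKM values were not used.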

Additional observations from a re-analysis of the deposited data

Results flagged for a closer look

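The change of the cytokine gene IFNG in LG12, 1.80 in log2(CPM + 1), lay apart from the other 3 animals, with -0.05 in LG04, 0.11 in LG11 and 0.11 in LG15. The gap to the nearest animal was 0.917 of the whole range, above Dixon's 95% critical value for 4 samples. This gene had 3.92 CPM at 1 day and 0.409 CPM at 30 minutes in LG12, which are counts of a few reads. The changes of 42 lists and 57 genes were screened in this way, and about 1 in 20 would pass by chance.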

How the results depend on the processing

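The 130 calls became 129 with DESeq2's size factors and 128 without globin genes, 450 with DESeq2 (all 130 among them), 335 without the filter, 71 without the 1 day library labelled LG04, and, in fits chosen after seeing the data, 7 without that of LG15, 22 without both and 248 with DESeq2 on the 8 libraries alone. edgeR called 0 with the 8 libraries alone (792 at an unadjusted p under 0.05), with no replicate block, where the paired samples were taken as independent (654), without libraries under 2000000 counts (1032) and with the platelet level as a covariate (691). Leaving out 1 animal gave 0 to 210. Stimulation-induced genes called lower (9) were 17 with DESeq2, 1 without the 1 day library of LG15, 4 without both that and the one labelled LG04, and 0 to 4 on leaving out 1 animal. Platelet markers called higher (3) were 10 with DESeq2, 9 without the filter and 10 with DESeq2 on the 8 libraries, 0 without the 1 day library of LG15 (11 at an unadjusted p under 0.05) and 0 without both (9), and 0 to 11 on leaving out 1 animal. Type I interferon-stimulated genes called lower (3) were 6 with DESeq2, 6 without the filter, 1 without the 1 day library labelled LG04, 1 without that of LG15, RSAD2, and 0 without both (15 at an unadjusted p under 0.05), and 0 to 2 on leaving out 1 animal. For each of these 3 lists edgeR called 0 in the same 4 fits that called 0 genes in all. Of values for named genes under an alternative, 569 kept direction and side of the threshold, 290 lost the call, 26 gained it and 14 reversed; 34 of 672 list medians moved by more than the spread between animals. Reversals with the platelet covariate, to which GP9 itself contributes, were GP9 (-0.82), PRKG1 (-0.093), CXCL10 (0.20), MS4A1 (0.29) and NCR1 (-0.077). Without libraries under 2000000 counts MYC was at -0.24 and NCR1 at -0.060. Without the 1 day libraries of LG04 and LG15 MYC was at -0.10, CXCL10 at 0.014 and NCR1 at -0.047. Leaving out 1 animal gave -0.74 to 0.55 for ZBTB16 and -0.58 to 0.19 for FKBP5, both above 0 without LG11, and -0.37 to 0.12 for CD3E, above 0 without LG11 and without LG12. The cause was not tested. Depth limits genes near 3 counts, such as GP9 and ALOX12 in LG11 and LG12 and GP6 in LG12. It also limits IFI44L and C1orf74 in LG04, LG12 and LG15 at 1 day.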
